A study of Mus musculus with 8 samples.

Results

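The constitutive proteasome genes are the genes for the standard subunits of the proteasome, together with its assembly chaperones and the activators and inhibitor that are not induced by interferon. They were chosen by gene symbol (Psma1 to Psma7, Psmb1 to Psmb7, Psmc1 to Psmc6, all numbered Psmd genes, Psmf1, Psme3, Psme4, Psmg1 to Psmg4 and Adrm1) and kept where 4 or more of the 8 libraries reached 1 CPM, a gene's counts scaled to a fixed library total. All 42 genes with such a symbol passed this filter, out of 12889 genes that passed it in all. Of the 42, 14 encode the 20S core, 18 the 19S cap, 7 assembly chaperones and 3 activators or an inhibitor. The libraries were made from RNA of isolated RPE, the pigmented monolayer behind the photoreceptors, of C57/Bl6 mice at P29 and compare 4 Bbs8-/- animals with 4 Bbs8+/+ littermates. Bbs8, also named Ttc8, encodes a subunit of the BBSome, a complex that carries proteins to and from the primary cilium. The gene is deleted in the whole animal, so the photoreceptors next to the RPE lacked it too, the mice received no treatment, and their sex was not determined.

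The 26S proteasome degrades proteins tagged with ubiquitin. Its 20S core is a barrel in which rings of alpha subunits gate the entry and rings of beta subunits hold the proteolytic sites, and its 19S cap recognises the ubiquitin chain, removes it and threads the protein into the core through a ring of ATPases. The transcription factor Nfe2l1 is known to raise the subunit genes together when proteasome activity falls, and in the RPE the proteasome works beside the lysosomal route that clears the outer segment tips shed by photoreceptors.

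Each library held between 2389835 and 3093428 counts on genes, so that 3 counts, the floor used here, correspond to 0.970 to 1.26 CPM. Ttc8 lay at 35.5 to 58.9 CPM in the Bbs8+/+ libraries and at 1.79 to 6.16 CPM in the Bbs8-/- libraries, and every library matched its label. Bbs8+/+ replicate 1 stood apart. Its counts differed from those of the other Bbs8+/+ libraries by a chi-square of 6.07 to 7.51 per degree of freedom, against 2.87 to 3.41 among the other 3. Among the Bbs8-/- libraries this value was 4.17 to 5.04. For the proteasome genes past the threshold, results are given with and without Bbs8+/+ replicate 1. It was the highest or the lowest control for 31 of the 42 proteasome genes (73.8%) and for 60.5% of all genes tested. Bbs8-/- replicate 1 was the highest or the lowest of its genotype for 26 of the 42 (61.9%) and for 56% of all genes tested. The sheets were peeled from the eyecup and held other cells. Summed photoreceptor markers lay at 58641 to 62083 CPM in Bbs8+/+ and 24744 to 25648 CPM in Bbs8-/- libraries, with 13 of 16 markers lower and 1 higher. Lens markers lay at 3210 to 3455 against 447 to 504 CPM, with 14 of 14 lower, and erythrocyte markers at 5208 to 5758 against 2041 to 2288 CPM, with 5 of 8 lower. RPE markers lay at 41416 to 42400 against 49483 to 53236 CPM, with 2 of 15 higher and 5 lower, and reactive glia markers at 6959 to 7706 against 8987 to 9425 CPM, with 6 of 11 higher. Of the remaining lists, 0 of 8 microglia markers and 1 of 8 fibroblast and endothelium markers were past the threshold. Of all genes tested, 6.80% were lower and 5.46% higher. The part that these shifts have in the values below was not tested. In RNA of peeled sheets, fewer cells of a type, whether lost or not carried over, and less RNA per cell cannot be told apart.

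A few proteasome genes, mostly ATPases and other cap subunits, were lower in Bbs8-/- RPE, and most did not pass the test. Of the 42 genes, 6 were lower in Bbs8-/- RPE, 2 were higher and 34 did not pass the threshold, an adjusted p under 0.05 in edgeR's quasi-likelihood test over all 12889 genes. All 6 genes that fell were among the 18 proteasome genes whose mean reached 100 CPM, and both genes that rose lay under it. The share of proteasome genes that fell was 14.3%, beside 6.80% of all genes tested, and the share that rose was 4.76%, beside 5.46%. At means of 100 CPM or more the share that fell was 33.3% of the proteasome genes and 26.52% of all such genes. None of these proteasome genes rose, against 13.44% of all genes at that level. For 6 proteasome genes the highest Bbs8-/- library was under the lowest control (14.3%, beside 8.62% of all genes) and for 2 the reverse held (4.76%, beside 7.42%). At 100 CPM or more, the share that fell was thus not far above that of all such genes. These genes reach a mean of 85629 CPM, whereas the proteasome genes reach 310 CPM, so the levels are not matched. No test of the list was made.

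Core and cap are described apart. In the 20S core 1 of 14 genes fell and 1 rose (7.14% each), beside 6.80% and 5.46% of all genes tested. The median log2 fold change was 0.02, as it was for all genes tested. In the 19S cap 5 of 18 genes fell (27.8%) and 1 rose (5.56%), and the median was -0.18. In the cap 14 of the 18 estimates were below 0, beside 6212 of 12889 over all genes tested. At means of 100 CPM or more, 5 of 11 cap genes fell (45.5%, beside 26.52% of all genes at that level), with a median of -0.24 beside -0.09, and 1 of 7 core genes fell (14.3%), with a median of -0.02. The chaperones, activators and inhibitor had 0 of 10 genes past the threshold in edgeR, DESeq2 or limma-voom, 0 with an unadjusted p under 0.05, and a median of -0.16. Over all 12889 genes tested, 1563 were lower and 1453 higher at an unadjusted p under 0.05. With scaling by library size alone, which gave 1005 higher and 657 lower genes in place of 704 and 877, the medians were 0.11 for the core, -0.10 for the cap and -0.07 for the other 10, relative to a median of 0.11 for all genes. The difference between core and cap was not tested.

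**Figure D1:**
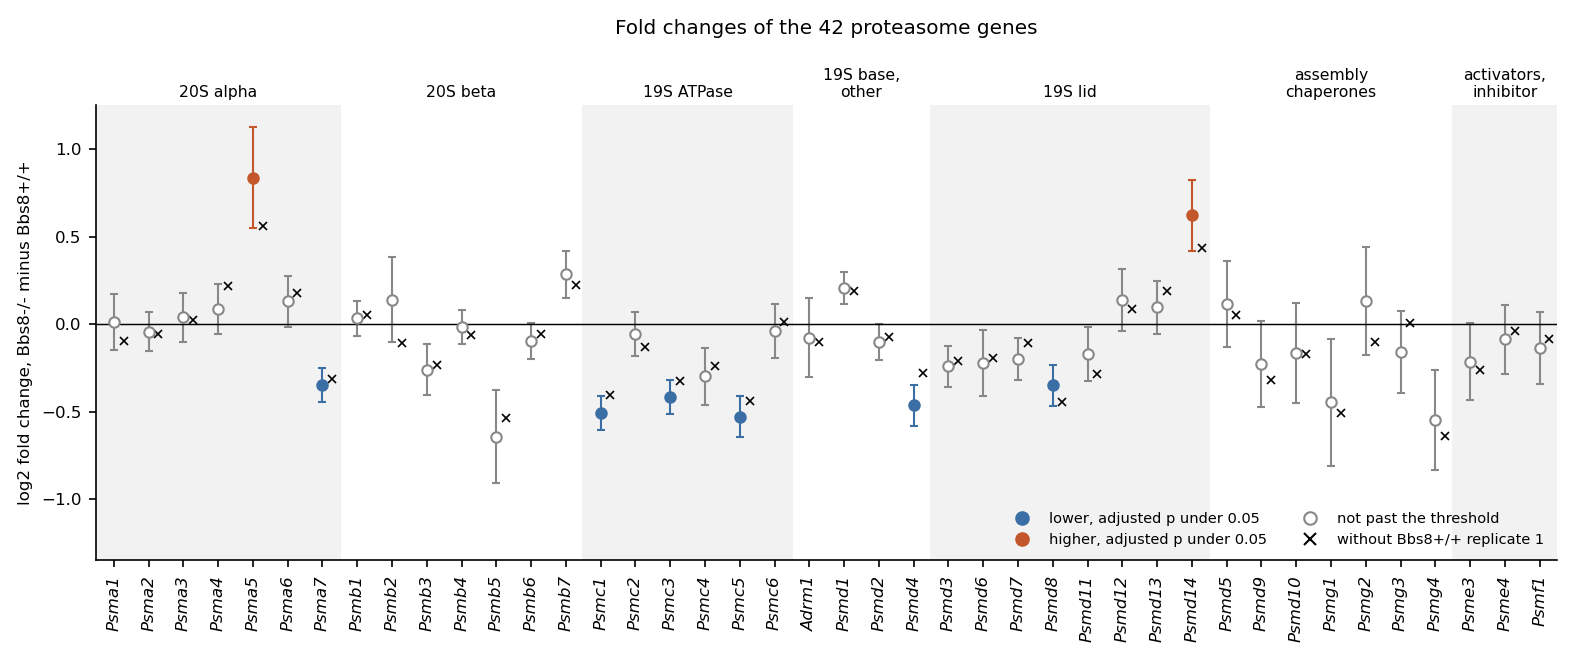
Log2 fold change of each of the 42 proteasome genes, Bbs8-/- minus Bbs8+/+, with bars of 1 standard error (4 libraries a genotype), by part of the complex. Filled blue points are lower and filled red points higher at an adjusted p under 0.05, open points did not pass, and crosses give the fit without Bbs8+/+ replicate 1, in which Psma5 and Psmd14 no longer passed.

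**Figure D2:**
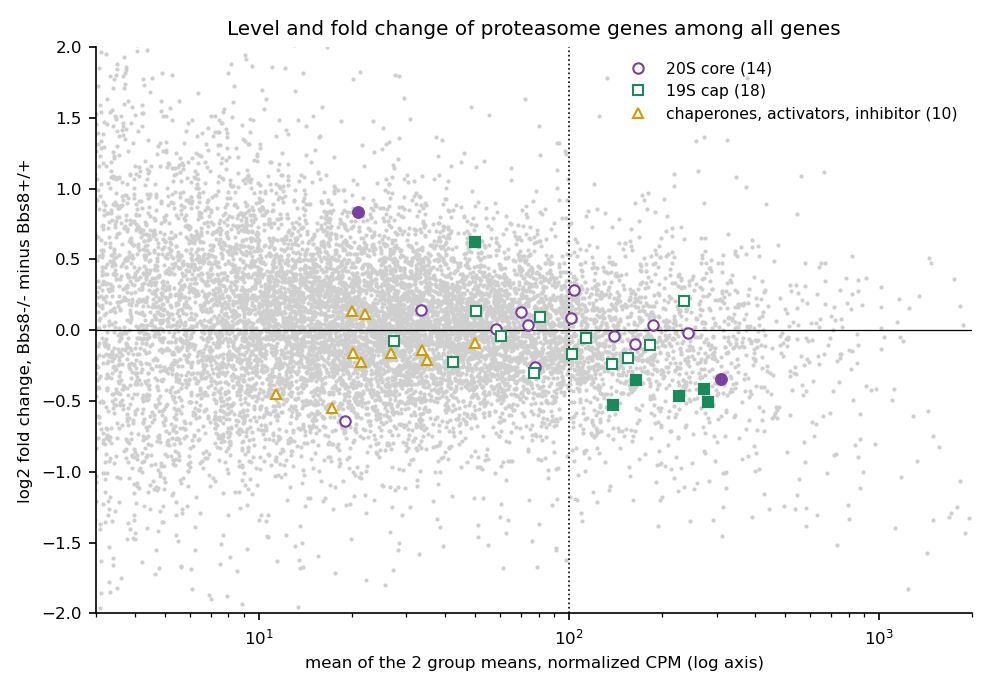
Mean level (normalized CPM, log axis) and log2 fold change of the proteasome genes among all genes tested (grey), with filled symbols for genes past the threshold and a dotted line at 100 CPM. The 6 genes that fell lie to the right of the line, and Psma5 and Psmd14 lie to its left, and genes outside the axes are not drawn.

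Among the 7 alpha subunits, Psma7 (chr2:180036374-180042433, minus strand) fell and Psma5 (chr3:108256926-108279974, plus strand) rose. This is 14.3% in each direction, beside 6.80% of all genes tested that fell and 5.46% that rose. Psma7 lay at 369, 330, 350 and 339 normalized CPM in Bbs8+/+ replicates 1 to 4 and at 220, 277, 323 and 272 in Bbs8-/- replicates 1 to 4. The groups did not overlap, but Bbs8-/- replicate 3 came close to the lowest control and Bbs8-/- replicate 1 was well below the rest. The mean was 78.7% of the control mean (log2 fold change -0.35 ± 0.10 (SE, n = 4 a genotype), adjusted p = 0.0131). Without Bbs8-/- replicate 1 the value was -0.26 with an adjusted p of 0.0847, and with library size alone -0.26 with an adjusted p of 0.0831, and the call was lost in both. Without Bbs8+/+ replicate 1 it was -0.31 with an adjusted p of 0.0129.

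Psma5 lay at 5.76, 16.8, 22.5 and 15.2 CPM in the controls and at 27.5, 26.2, 26.0 and 27.3 CPM in Bbs8-/- RPE. Bbs8+/+ replicate 1 was far below the other controls, with 17 counts against 41 to 55, while the Bbs8-/- libraries lay close together above all controls. The log2 fold change was 0.84 ± 0.29 (SE), with an adjusted p of 0.0492. It was 0.56 with an adjusted p of 0.192 without Bbs8+/+ replicate 1, and the call was lost in all of the fits without 1 library except that without Bbs8+/+ replicate 3. The remaining alpha genes Psma1, Psma2, Psma3, Psma4 and Psma6 had estimates between -0.04 and 0.13 and overlapped between genotypes.

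None of the 7 beta subunits passed the threshold in edgeR, DESeq2 or limma-voom, and at an unadjusted p under 0.05 1 was lower and 1 higher. At that unadjusted p, 1563 of all 12889 genes tested were lower and 1453 higher. Psmb5, Psmb6 and Psmb7 carry the proteolytic sites with chymotrypsin-like, caspase-like and trypsin-like activity. Psmb5 (chr14:54614119-54618022, minus strand) lay at 28.1, 19.02, 22.9 and 23.0 CPM in the controls and 13.1, 18.6, 11.6 and 16.1 CPM in Bbs8-/- RPE. All Bbs8-/- libraries were below all controls, although the second replicates of each genotype nearly met. The estimate of -0.64 ± 0.26 (SE) had an unadjusted p of 0.0204 and an adjusted p of 0.12, on 29 to 83 counts a library.

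Psmb6 (chr11:70525367-70527858, plus strand) lay at 182, 169, 171 and 156 CPM in the controls and 155, 166, 152 and 162 CPM in Bbs8-/- RPE. The groups overlapped, and the log2 fold change was -0.09 ± 0.10 (SE), adjusted p = 0.651. Psmb7 (chr2:38588036-38644087, minus strand) lay at 81.9, 109, 85.0 and 99.6 CPM in the controls and 125, 120, 88.8 and 123 CPM in Bbs8-/- RPE. All but Bbs8-/- replicate 3 were above the controls, and the estimate was 0.29 ± 0.13 (SE), adjusted p = 0.183. The catalytic genes thus had estimates on both sides of 0, and none passed. The non-catalytic genes Psmb1, Psmb2, Psmb3 and Psmb4 had estimates from -0.26 (Psmb3) to 0.14 (Psmb2), and for Psmb2, whose lowest value (14.2 CPM) was again that of Bbs8+/+ replicate 1, the estimate was -0.11 without this library.

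**Figure D3:**
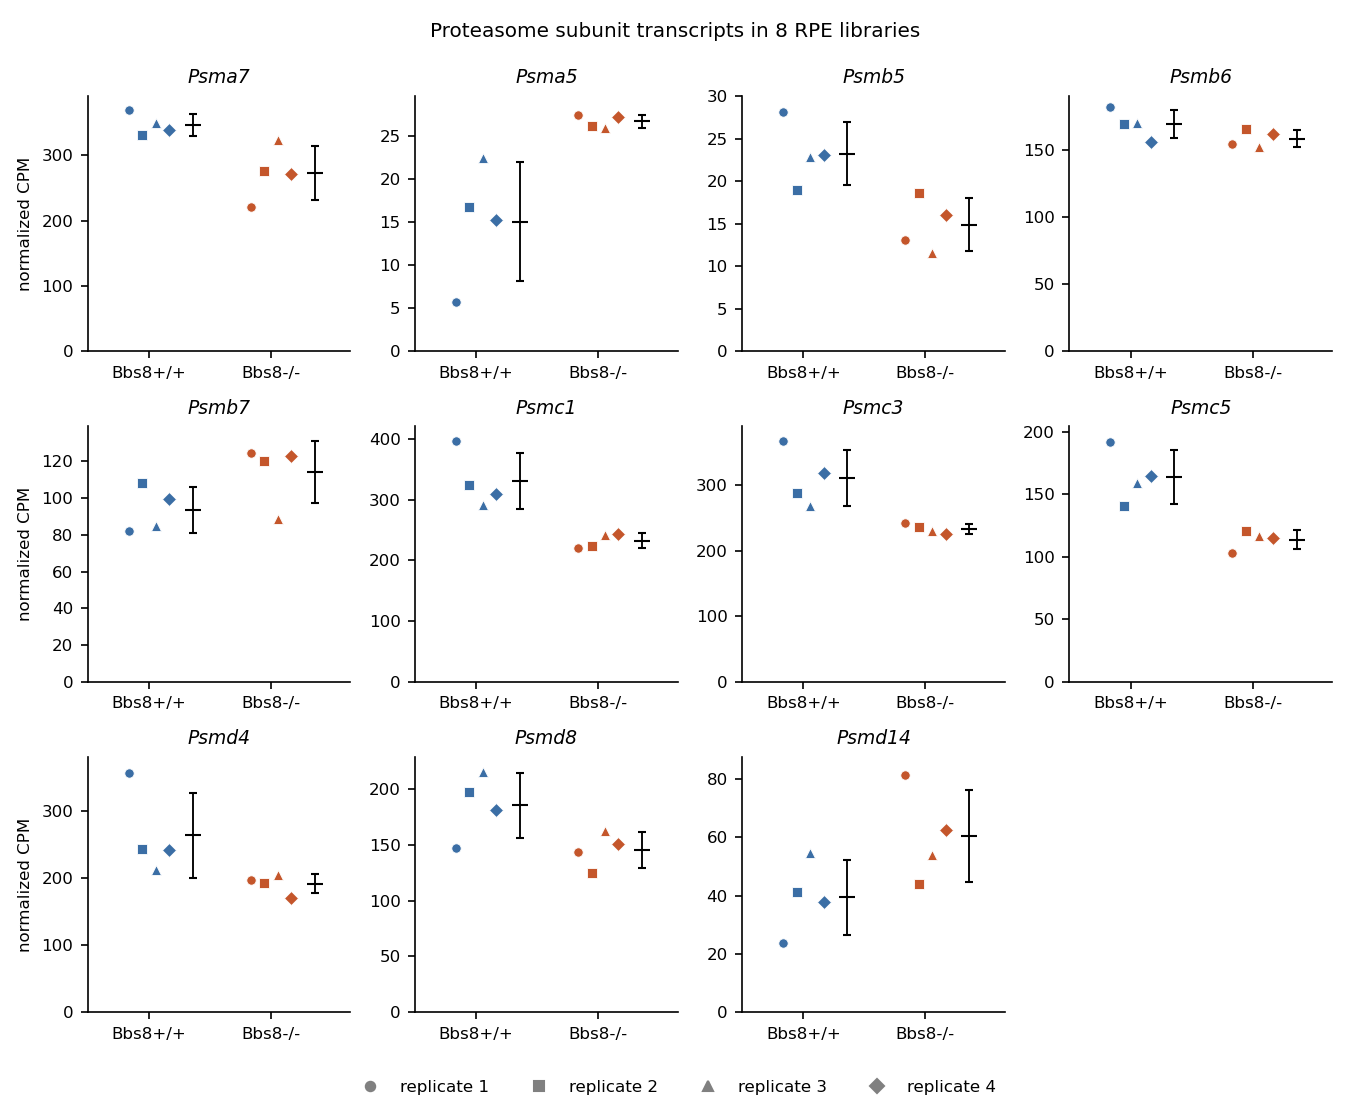
Normalized CPM of the 8 proteasome genes past the threshold and of the catalytic subunits Psmb5, Psmb6 and Psmb7 in each library, with the mean and SD of each genotype (n = 4) beside the points. Psmc1, Psmc3, Psmc5, Psmd4, Psma7, Psma5 and Psmb5 did not overlap between genotypes, and Psmd8, Psmd14, Psmb6 and Psmb7 did. Bbs8+/+ replicate 1 (circle) was the highest or the lowest control for all 11 genes.

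Of the 5 cap genes that fell, 3 belong to the ATPase ring. Its 6 subunits, Psmc1 to Psmc6, unfold the protein and push it into the core, and the tails of Psmc1, Psmc3 and Psmc4 dock into the alpha ring to open its gate. Psmc1, Psmc3 and Psmc5 fell, Psmc2, Psmc4 and Psmc6 did not pass, and all 6 estimates were below 0. Over all genes tested, 6.80% fell, 8.62% were lower without overlap and 6212 of 12889 estimates were below 0. Of all genes with a mean of 100 CPM or more, 26.52% fell. Psmc1 (chr12:100110154-100123405, plus strand) lay at 396, 324, 291 and 310 CPM in the controls and 221, 224, 242 and 243 CPM in Bbs8-/- RPE, without overlap and with Bbs8+/+ replicate 1 as the highest. Its mean was 70.4% of control, with a log2 fold change of -0.51 ± 0.10 (SE) and an adjusted p of 0.00022.

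Psmc3 (chr2:91054009-91066369, plus strand) lay at 368, 289, 269 and 320 CPM in the controls and 242, 237, 230 and 225 CPM in Bbs8-/- RPE. The Bbs8-/- libraries were close together under the lowest control, and the log2 fold change was -0.41 ± 0.10 (SE), adjusted p = 0.00254. Psmc5 (chr11:106256154-106263120, plus strand) lay at 192, 140, 159 and 165 CPM in the controls and 103, 121, 116 and 115 CPM in Bbs8-/- RPE. Again no library of one genotype reached the other, and the log2 fold change was -0.53 ± 0.12 (SE), adjusted p = 0.00123. Bbs8+/+ replicate 1 was the highest control for all 3 genes, and without it the values were -0.41 for Psmc1 (adjusted p = 0.000511), -0.32 for Psmc3 (adjusted p = 0.00889) and -0.44 for Psmc5 (adjusted p = 0.00479). Of the other ATPases, Psmc4 had an estimate of -0.30 ± 0.16 (SE), adjusted p = 0.278, and Psmc2 and Psmc6 had -0.06 and -0.04, which turned to 0.03 and 0.05 with library size alone.

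The promoters were read for motifs known from proteasome genes, and those shown are of 3 cap genes that fell and hold the first motif and of 2 catalytic core genes that hold the second. RefSeq promoters (GRCm38.p6, from 250 bases before to 50 bases after the start) were held for 35 of the 42 genes, all but Psmb1, Psmb2, Psmb7, Psmc3, Psmd3, Psmd7 and Psmg2. The letters were searched on both strands, also for the CCAAT box (CCAAT), the GC box (GGGCGG) and the TATA box (TATAAA), which are not marked. Capitals mark the core bound by ETS factors, CCGGAA or its reverse complement, in the promoters of Psmc1 (chr12:100109952-100110251, plus strand), Psmc5 (chr11:106255935-106256234, plus strand) and Psmd4 (chr3:95042565-95042864, minus strand), where the matches on both strands overlap, and the antioxidant response element TGACNNNGC, the kind of site Nfe2l1 binds, in those of Psmb5 (chr14:54617946-54618245, minus strand) and Psmb6 (chr11:70525107-70525406, plus strand).
Psmc1: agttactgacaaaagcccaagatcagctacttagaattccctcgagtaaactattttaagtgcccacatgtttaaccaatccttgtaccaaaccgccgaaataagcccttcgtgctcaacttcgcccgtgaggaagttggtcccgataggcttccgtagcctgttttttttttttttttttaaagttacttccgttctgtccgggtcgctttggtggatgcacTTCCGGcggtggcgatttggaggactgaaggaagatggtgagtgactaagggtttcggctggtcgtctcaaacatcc
Psmc5: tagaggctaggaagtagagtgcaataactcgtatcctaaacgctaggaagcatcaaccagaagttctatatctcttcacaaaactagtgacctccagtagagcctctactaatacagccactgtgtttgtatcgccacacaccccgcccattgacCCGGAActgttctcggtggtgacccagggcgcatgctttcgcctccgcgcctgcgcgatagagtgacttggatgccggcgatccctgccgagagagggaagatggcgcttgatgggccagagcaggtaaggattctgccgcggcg
Psmd4: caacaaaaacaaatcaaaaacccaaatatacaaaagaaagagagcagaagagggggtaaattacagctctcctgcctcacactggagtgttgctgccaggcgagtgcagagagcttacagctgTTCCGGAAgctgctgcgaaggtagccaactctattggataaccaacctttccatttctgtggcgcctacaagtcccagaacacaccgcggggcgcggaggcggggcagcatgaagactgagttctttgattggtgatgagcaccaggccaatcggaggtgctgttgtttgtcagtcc
Psmb5: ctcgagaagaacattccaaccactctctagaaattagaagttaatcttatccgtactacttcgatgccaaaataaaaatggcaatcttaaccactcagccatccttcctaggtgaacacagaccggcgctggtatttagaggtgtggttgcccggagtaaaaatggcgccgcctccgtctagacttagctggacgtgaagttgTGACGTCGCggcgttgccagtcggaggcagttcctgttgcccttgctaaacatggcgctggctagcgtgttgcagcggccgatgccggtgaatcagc
Psmb6: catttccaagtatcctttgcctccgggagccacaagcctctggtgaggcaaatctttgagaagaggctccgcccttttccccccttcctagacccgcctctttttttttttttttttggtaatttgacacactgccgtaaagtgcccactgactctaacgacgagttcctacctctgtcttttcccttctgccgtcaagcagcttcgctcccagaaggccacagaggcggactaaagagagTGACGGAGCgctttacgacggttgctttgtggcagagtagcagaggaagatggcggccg

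The promoters of Psmd8 and Psma7, which also fell, held neither motif and are not shown. The ETS core was held by 11 of 15 cap promoters (73.3%), 3 of 11 core promoters (27.3%) and 6 of 9 promoters of the remaining genes (66.7%), beside 28.2% of the promoters of all genes tested and 15.2% of all promoters of this length. It did not divide the genes by their change, with 4 of 7 promoters of genes past the threshold (57.1%) and 16 of 28 of the others (57.1%). The 4 include that of Psma5, which rose. The antioxidant response element was held by 2 of 11 core promoters (18.2%), 3 of 15 cap promoters (20%) and 2 of 9 of the rest (22.2%), beside 15% of genes tested and 12.5% of all promoters. It was found in none of the 7 promoters of genes past the threshold and in 7 of the other 28 (25%), those of Adrm1, Psmb5, Psmb6, Psmc6, Psmd12, Psmd9 and Psme4. In the promoter of Psmd9 it overlapped another of the motifs searched. The CCAAT box was held by 54.5% of core and 33.3% of cap promoters, beside 38.8% for genes tested. For the GC box these shares were 45.5%, 73.3% and 64.8%, and for the TATA box 9.09%, 13.3% and 7.12%. Of the 7 promoters of genes past the threshold, 4 held the CCAAT box, 4 the GC box and 0 the TATA box, beside 9, 17 and 3 of the other 28. A match of letters is no proof of binding, and a promoter without one may hold the site outside this window.

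The base of the cap also holds the scaffold subunits Psmd1 and Psmd2 and the ubiquitin receptors Psmd4 and Adrm1. Psmd4 (chr3:95032694-95042614, minus strand), which binds ubiquitin chains, fell from 357, 244, 212 and 242 CPM in the controls to 198, 194, 204 and 171 CPM in Bbs8-/- RPE. The groups did not overlap, but Bbs8+/+ replicate 3 and Bbs8-/- replicate 3 nearly met, and Bbs8+/+ replicate 1 was far above the rest. The log2 fold change was -0.46 ± 0.12 (SE), adjusted p = 0.00536, and the value was -0.28 with an adjusted p of 0.0477 without Bbs8+/+ replicate 1. The other receptor, Adrm1, was at 20.8 to 34.7 CPM with an estimate of -0.08, which changed sign with library size alone (0.01). Psmd1 was the reverse of Psmd4 in direction. It lay at 213 to 228 CPM in the controls and 248 to 260 CPM in Bbs8-/- RPE, without overlap, with an estimate of 0.20 ± 0.09 (SE) and an adjusted p of 0.161, and of the alternatives run it passed with library size alone (0.29, adjusted p = 0.0273). Psmd2 had an estimate of -0.10 and overlapped.

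The lid removes the ubiquitin chain and clamps the cap onto the core. Of its 8 genes, Psmd8 (chr7:29174188-29180701, minus strand) fell and Psmd14 (chr2:61711694-61800376, plus strand) rose. This is 12.5% in each direction, beside 6.80% of all genes tested that fell and 5.46% that rose. Psmd8 lay at 147, 197, 215 and 181 CPM in the controls and 143, 125, 162 and 151 CPM in Bbs8-/- RPE. Bbs8+/+ replicate 1 lay among the Bbs8-/- libraries and the other controls lay above them all. The log2 fold change was -0.35 ± 0.12 (SE) with an adjusted p of 0.0424, and -0.45 with an adjusted p of 0.00159 without Bbs8+/+ replicate 1. The call was lost in 6 of the 8 fits without 1 library, with the likelihood ratio test (adjusted p = 0.0532) and with library size alone (-0.26, adjusted p = 0.162).

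Psmd14 encodes the deubiquitinase of the lid, which cleaves the chain from the protein to be degraded. It lay at 23.7, 41.4, 54.8 and 37.9 CPM in the controls and 81.3, 44.1, 54.0 and 62.6 CPM in Bbs8-/- RPE. The lowest value was that of Bbs8+/+ replicate 1 and the highest that of Bbs8-/- replicate 1, and between them the groups overlapped. The log2 fold change was 0.62 ± 0.21 (SE) with an adjusted p of 0.0401. It was 0.44 with an adjusted p of 0.14 without Bbs8+/+ replicate 1 and 0.45 with an adjusted p of 0.209 without Bbs8-/- replicate 1, and the call was lost in 6 of the 8 fits without 1 library, in DESeq2 (adjusted p = 0.0504), in limma-voom (adjusted p = 0.0794) and with the replicate block (adjusted p = 0.051). The partner of Psmd14, Psmd7, had an estimate of -0.20, and Psmd3, Psmd6 and Psmd11 had -0.24, -0.22 and -0.17. Psmd12 and Psmd13 had 0.14 and 0.10. None of these passed.

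None of the 10 genes around the complex passed. The chaperones that build the core, Psmg1 to Psmg4, had estimates of -0.45, 0.13, -0.16 and -0.55, and those that build the base, Psmd5, Psmd9 and Psmd10, had 0.11, -0.23 and -0.16. These genes were low beside most subunits, with means of 11.4 to 26.8 CPM, and varied more between libraries. Their median biological coefficient of variation was 0.24, against 0.13 for the core and 0.12 for the cap. All genes tested were like the chaperones in this, with a median level of 18.9 CPM against 20.2 and a median coefficient of 0.24. Psmd10 was at 20.5 to 22.9 CPM in the controls and 20.4 to 25.4 CPM in Bbs8-/- replicates 2 to 4, but at 6.98 CPM (17 counts) in Bbs8-/- replicate 1. The activators Psme3, which acts in the nucleus, and Psme4 had estimates of -0.21 and -0.09, and the inhibitor Psmf1 had -0.14.

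Summed by part, the ATPase ring differed most between genotypes. Its transcripts added up to 982 to 1215 CPM in the controls and 794 to 842 CPM in Bbs8-/- RPE, a mean of 76.8% of control, without overlap. The other base subunits summed to 639 to 798 against 643 to 653 CPM and the lid to 789 to 848 against 677 to 827 CPM, and both overlapped. The whole cap summed to 2468 to 2802 against 2118 to 2283 CPM, and the core to 1606 to 1671 against 1543 to 1600 CPM. As shares of all counts on genes, which use no scaling factor, the cap made up 0.242% to 0.268% of a control library and 0.216% to 0.236% of a Bbs8-/- library, whereas the core made up 0.155% to 0.164% and 0.159% to 0.167%, so that the core sum was lower with TMM scaling but not as a share of counts. The ratio of ATPase to core counts within a library, which no scaling can move, was 0.744, 0.637, 0.587 and 0.648 in the controls and 0.509, 0.529, 0.521 and 0.526 in Bbs8-/- RPE. Bbs8+/+ replicate 1 was the highest, and the other controls also lay above all Bbs8-/- libraries. Psmc1, Psmc3 and Psmc5, the ATPases that fell, held most of the ring's counts. Their ratio to the counts of Psmc2, Psmc4 and Psmc6 was 2.69 to 3.69 in the controls. In Bbs8-/- RPE this ratio was 2.25 to 2.74, and the ranges overlapped. For the whole cap over the core the ratio was 1.48 to 1.72 in the controls and 1.36 to 1.48 in Bbs8-/- RPE, where Bbs8-/- replicate 3 (1.480) lay just above Bbs8+/+ replicate 3 (1.477). These sums were made with the changes of single genes known and carry no test.

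**Figure D4:**
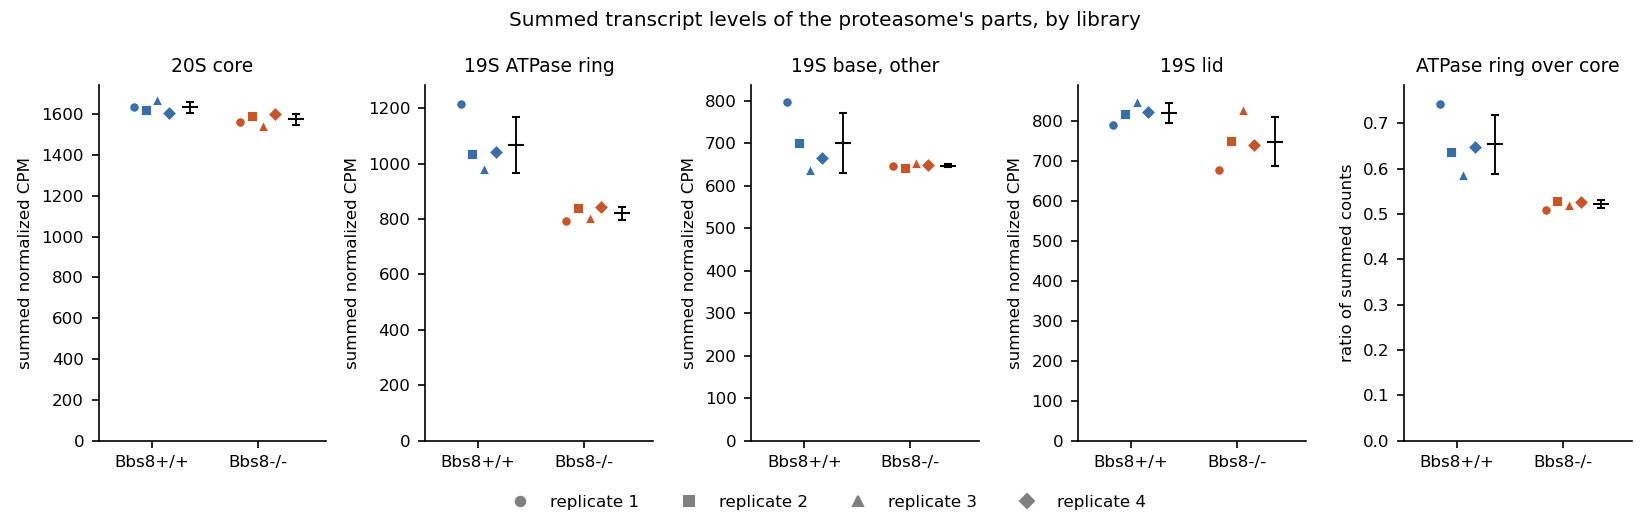
Summed normalized CPM of the 14 core genes, the 6 ATPases, the 4 other base genes and the 8 lid genes in each library, and the ratio of ATPase to core counts, with the mean and SD of each genotype (n = 4). The core sum, the ATPase sum and the ratio of ATPase to core counts do not overlap between genotypes, and the other base and lid sums do. As a share of all counts, which is not drawn, the core overlaps.

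Nfe2l1, which is known to drive the subunit genes, rose, as did 5.46% of all genes tested. Of all genes with a mean of 100 CPM or more, as Nfe2l1 had, 13.44% rose. Nfe2l1 lay at 173, 156, 142 and 136 CPM in the controls and 195, 218, 208 and 192 CPM in Bbs8-/- RPE, without overlap (log2 fold change 0.42 ± 0.11 (SE), adjusted p = 0.00465). The other 6 genes of its regulation that were listed, which act in the release, cleavage or turnover of the factor or are related to it, did not pass, but with library size alone, without a filter, with the replicate block and without Bbs8+/+ replicate 3 a second gene of the list was higher. Interferon can exchange the catalytic subunits for the inducible Psmb8, Psmb9 and Psmb10 and add the activator of Psme1 and Psme2. Psme1 rose from 53.5, 45.5, 33.5 and 59.8 CPM to 78.8, 78.1, 69.2 and 99.6 CPM, without overlap (0.76 ± 0.17 (SE), adjusted p = 0.00133). Its partner Psme2 had an estimate of 0.32 ± 0.26 (SE) and did not pass (adjusted p = 0.513).

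The inducible catalytic genes stayed low in both genotypes. Psmb10 lay at 5.95 to 17.9 CPM in the controls and 8.80 to 12.9 CPM in Bbs8-/- RPE (-0.12 ± 0.36 (SE), adjusted p = 0.901). Psmb8 was at 0 to 2.37 CPM in the controls and 0.411 to 4.66 CPM in Bbs8-/- RPE (adjusted p = 0.718). Psmb9 did not pass the filter on low counts, with 6 counts over the 4 controls and 15 over the 4 Bbs8-/- libraries. Psma8 of the testis and Psmb11 of the thymus had 0 counts in every library, and a count of 0 allows up to 0.970 to 1.26 CPM.

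**Figure D5:**
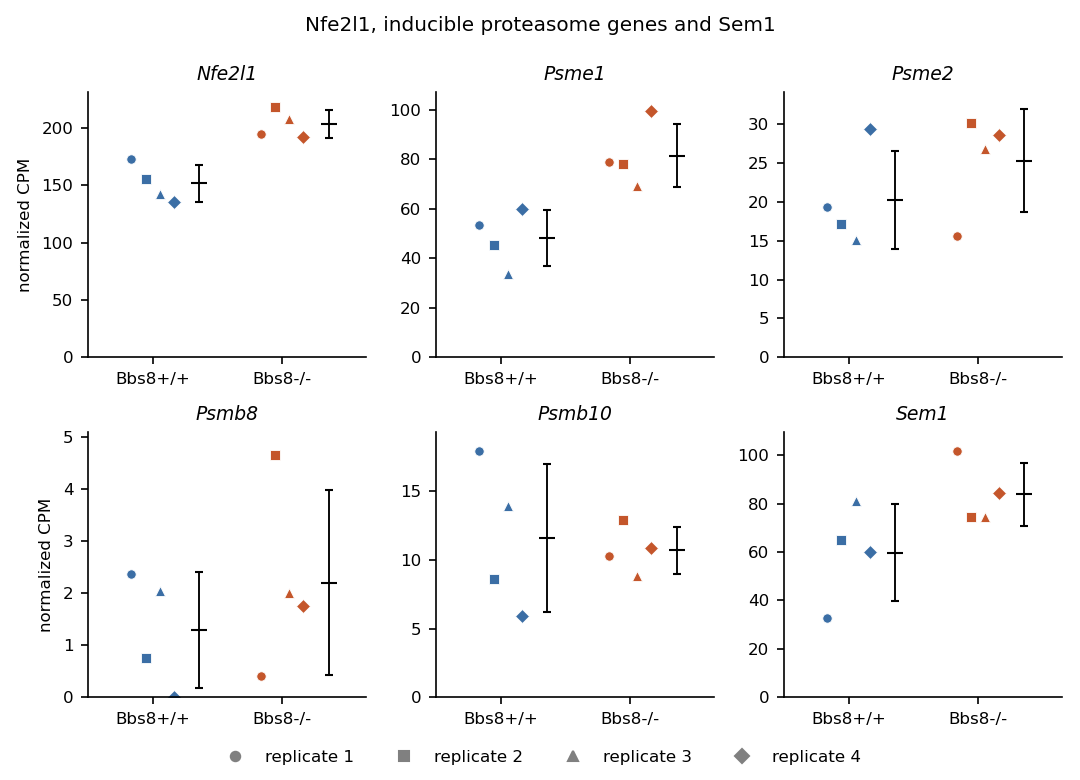
Normalized CPM of Nfe2l1, of the inducible genes Psme1, Psme2, Psmb8 and Psmb10 and of Sem1, a small cap subunit, in each library, with the mean and SD of each genotype (n = 4). Nfe2l1 and Psme1 lie higher in every Bbs8-/- library than in any control, and the others overlap.

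Of 15 proteasome-associated genes tested, which include the core maturation factor Pomp, the cap subunit Sem1 and the deubiquitinases Usp14 and Uchl5, none passed. At an unadjusted p under 0.05, 2 were lower and 1 higher, beside 1563 lower and 1453 higher of all 12889 genes tested. DESeq2 and limma-voom called 0 of the 15. Sem1 lay at 32.8 to 80.9 CPM in the controls and 74.4 to 102 CPM in Bbs8-/- RPE (0.49 ± 0.18 (SE), adjusted p = 0.0679), with Bbs8+/+ replicate 1 as the lowest, and was added to the genes described after its values were seen. Of 11 genes of ubiquitin and its conjugation that are reported, 1 fell and 10 did not pass. The alternatives gave 1 to 2 lower and 0 to 2 higher. Beside this and the counts that follow, 6.80% of all genes tested fell and 5.46% rose, and single calls are no result about a list. Uba1, the main enzyme that activates ubiquitin, lay at 452, 352, 358.5 and 368 CPM in the controls. In Bbs8-/- RPE it lay at 271, 266.6, 311 and 298 CPM (-0.42 ± 0.09 (SE), adjusted p = 0.00139). The groups did not overlap, and Bbs8+/+ replicate 1 was the highest. Of all genes with a mean of 100 CPM or more, as Uba1 had, 26.52% fell. Of the 8 genes of the p97 unfoldase and its cofactors, 0 passed in edgeR, DESeq2 or limma-voom, and 0 had an unadjusted p under 0.05. Of 7 subunits of the cytosolic chaperonin, a ring ATPase outside the ubiquitin system, Cct5 fell, with 102 to 121 CPM in the controls and 61.3 to 78.8 CPM in Bbs8-/- RPE (-0.64 ± 0.13 (SE), adjusted p = 0.000618), and the other 6 did not pass.

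Some counts can be shared with near copies. The last 300 bases of the transcript matched another gene over at least 100 bases at 90% identity or more for Adrm1, Psma5, Psmb1, Psmb3, Psmb5, Psmb6, Psmb7, Psmc3, Psmd1 and Psmd2. For Psma5, Psmb1, Psmb3, Psmb5, Psmb6 and Psmd2 these were pseudogenes, to which uniquely mapped reads of the gene can be lost or added. Psmb7 overlaps Nek6 (2223 and 1483 counts over the 8 libraries) and Psmc3 overlaps Slc39a13 (5853 and 663 counts). Psmc1, Psmc5, Psmd4, Psmd8, Psmd14 and Psma7 had no such match. Because each transcript is read at its end, the values compare a gene between genotypes, and levels are not set against transcript length.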

How the data were processed

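RNA of RPE from 4 Bbs8+/+ and 4 Bbs8-/- mice at P29, 30 ng a sample, was made into QuantSeq 3′ libraries, which are primed on the poly-A tail and read the end of each transcript, in this case as single-end 100 bp reads. After trimming with BBDuk, the authors used STAR for alignment to mm10 (gene models of Ensembl 93) and counted unique alignments with htseq-count, whose strand setting is not given in the sources used here. The deposited values are raw counts per Ensembl gene, 1 file a library, without normalization. Reads without a gene made up 17.0% to 18.4% of a Bbs8+/+ and 19.8% to 20.6% of a Bbs8-/- library, and reads that mapped to several places 32.8% to 34.5%, and both were left out. The study counts each animal as a biological replicate, and libraries were grouped by their labels.

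Genes that reached 1 CPM in 4 or more libraries (12889 of 31053 identifiers) were scaled by TMM (factors 0.955 to 1.05) and compared with the quasi-likelihood F test of edgeR 4.0.16 in R 4.3.3, two-sided, with Benjamini-Hochberg adjustment over all of them and a threshold of 0.05. CPM are normalized by TMM unless called shares or counts. SE were computed from the estimate and its F statistic. Symbols and coordinates came from GENCODE for GRCm38 (Ensembl 96), which named 30934 identifiers, and promoters from RefSeq. Transcript ends were compared with blastn 2.17.0. The fitting script was tested on simulated data. Alternatives were DESeq2 1.42.0, edgeR's likelihood ratio test, limma-voom 3.58.1 with quality weights, other scalings and filters, a replicate block, and each library left out in turn.

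Library values, singly or as the range of each genotype, were given for genes past the threshold, the catalytic subunits and Ttc8. The same holds for genes of the related lists past the threshold, Nfe2l1, Psmb8 and Psmb10, and summed counts were given for Psmb9. Of the related lists, Paaf1 and Cct6a were not analysed here. The result for 1 further gene of these lists is not reported here. The members, the related lists, the marker lists and the motifs were chosen with earlier results of these data known, and no list is independent support for its direction.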

Additional observations from a re-analysis of the deposited data

Results flagged for a closer look

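In 5 of the 84 groups of 4 libraries (42 genes in each genotype), 1 library lay so far from the nearest of the others that the gap, divided by the group's range, exceeded Dixon's critical value, and chance alone gives about 1 in 20 such groups. Adrm1 was at 20.8 CPM in Bbs8-/- replicate 2, beside 28.3 to 29.0 CPM in the other Bbs8-/- libraries. Psma6 was at 60.6 CPM in the same library, beside 76.5 to 79.2 CPM. Psmb1 was at 177 CPM in Bbs8-/- replicate 4, beside 193 to 196 CPM. Psmb7 was at 88.8 CPM in Bbs8-/- replicate 3, beside 120 to 125 CPM. Psme3 was at 55.9 CPM in Bbs8+/+ replicate 2, beside 29.7 to 33.9 CPM in the other controls. None of these genes was past the threshold between genotypes, and none of the 5 values came from Bbs8+/+ replicate 1.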

How the results depend on the processing

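Of 672 refits of single proteasome genes (42 genes under 16 alternatives), 612 kept the direction and the side of the threshold, 26 lost a call, 1 gained one (Psmd1 with library size alone, 0.293) and 33 changed sign, none of the last among the 8 genes past the threshold. Psmc1, Psmc3, Psmc5 and Psmd4 stayed past the threshold under all 16. The 1 fallen core gene (Psma7) was lost with library size alone (0), and the count ranged from 0 to 1 when each library was left out. The 1 risen core gene (Psma5) ranged from 0 to 1 likewise. The 5 fallen cap genes became 4 to 5 in all alternatives. The 1 risen cap gene (Psmd14) became 0 with DESeq2, 0 with limma-voom, 0 with the replicate block, 2 with library size alone (Psmd14 and Psmd1) and 0 to 1 when each library was left out. For all other alternatives these counts were as in the report, and the cause of each lost call was not tested. For the replicate block, same-numbered libraries did not deviate together (correlations -0.0552 to 0.00525 over 8428 genes). This gave no sign of pairing by number but cannot exclude it, since paired animals need not deviate together. With the block, Psmd14 had 0.628 with an adjusted p of 0.051. Over all genes the block gave 650 higher and 827 lower genes. Genes near 0 changed sign with library size alone (Adrm1 0.0126, Psma2 0.0458, Psmb4 0.0704, Psmc2 0.0322, Psmc6 0.0522, Psme4 0.00163) and with limma-voom (Psma1 -0.0239, Psmc6 0.00501, Psmb10 0.146). When each library was left out, the signs of further genes that did not pass varied, with log2 fold changes of -0.166 to 0.0411 for Adrm1, -0.0968 to 0.074 for Psma1, -0.0156 to 0.0828 for Psma3, -0.0387 to 0.219 for Psma4, -0.331 to 0.185 for Psmb10, -0.109 to 0.339 for Psmb2, -0.0649 to 0.029 for Psmb4, -0.0869 to 0.04 for Psmc6, -0.334 to 0.106 for Psmd10, -0.00653 to 0.254 for Psmd12, -0.0481 to 0.203 for Psmd13, -0.0102 to 0.235 for Psmd5, -0.386 to 0.0419 for Psme3, -0.247 to 0.0672 for Psme4, -0.103 to 0.603 for Psmg2 and -0.265 to 0.0082 for Psmg3. Alternatives for genes outside the 42 were added after the data were seen, and Sem1 passed with library size alone (0.579), without a filter (0.487) and without Bbs8+/+ replicate 3 (0.67). Of Nfe2l1 and its listed regulators, 2 in place of 1 were higher with library size alone, without a filter, with the replicate block and without Bbs8+/+ replicate 3. Of the ubiquitin genes, 1 was higher with library size alone, 2 without a filter and 1 without Bbs8+/+ replicate 3, and 2 in place of 1 were lower with limma-voom, without Bbs8+/+ replicate 1 and without Bbs8-/- replicate 2. Depth limits the low genes, such as the chaperones with means from 11.4 CPM and Psmb8 at 1.29 and 2.20 CPM, where 3 counts are up to 1.26 CPM.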

Other observations

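Transcript ends of the proteasome genes differ in base composition, and this is given as a description across genes, which are not independent replicates and share the same libraries. Over the 42 genes, the GC content of the last 300 bases of the transcript had a Spearman correlation of -0.257 with the log2 fold change between genotypes, and over 8424 genes at 10 CPM or more it was -0.145. For the level of Bbs8+/+ replicate 1 relative to the mean of the other controls, the correlation with GC content was 0.323 over the 42 genes and 0.123 over 8423 genes. Psma5 and Psmd14, the proteasome genes that rose and were lowest in Bbs8+/+ replicate 1, had ends of 40.7% and 39% GC, beside a median of 45.5% for the 42 genes. Psmc3, Psmc5 and Psmd4, which fell and were highest in that library, had 52.7%, 50% and 53.3%, but Psmc1 and Psma7, which also fell and were highest there, had 45.7% and 44.7%. Psmd8, which fell and was lowest there, had 45.3%. Over the 42 genes, the level of Bbs8+/+ replicate 1 relative to the other controls had a Spearman correlation of -0.0779 with the fold change computed without that library. The part of base composition in these results was not tested.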
